A study of Mus musculus with 20 samples.

Results

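The line by amphetamine interaction in mouse striatum is, for each gene, the log2 fold change of amphetamine over saline in an overactive line minus the same fold change in a control line. It was computed for every row of the deposited count table that carries a gene symbol, which were 26475 of 37051 loci. Of these, 17206 had enough counts to be tested. The 4 groups were 5 overactive amphetamine mice, 5 overactive saline mice, 5 control amphetamine mice and 5 control saline mice. Overactive mice came from a line bred by selection for high activity in the cage, and control mice served as the comparison. Amphetamine was d-amphetamine at 25 mg/kg. All 20 mice were males of about 6 months, labelled Collaborative Cross, a mouse population bred from several inbred strains. RNA of the whole striatum, taken 2 hours after the injection, was sequenced with paired ends. Each library is 1 mouse, and the libraries of a group are numbered 1 to 5. The labels name no pairing across groups, and none was used in the main fit. Whether each line stems from 1 breeding stock is not given in the sources used here.

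The striatum receives dopamine from the midbrain and glutamate from cortex and thalamus. Most of its neurons are GABAergic projection neurons that carry either the D1 or the D2 dopamine receptor. Amphetamine enters dopamine terminals, releases the stored dopamine, and is known to induce immediate early genes such as Fos and Arc in D1 receptor neurons. The interaction asks whether such a transcriptional response differs in size or direction between the lines, which neither response alone can answer.

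Library totals were 31393788 to 53773028 counts. Levels are given as CPM, the library-scaled counts of a gene relative to its library total. The projection neuron markers Drd1a, now named Drd1, and Drd2 were present in every mouse, at 179 to 303 CPM and at 140 to 233 CPM. Mbp of oligodendrocytes and Slc1a2 of astrocytes were listed at 0 in every library and were not tested, and these zeros, not examined further, are not read as absence of their RNA. Libraries differed in markers of regions that border the striatum. The level of a gene list in a library is the mean, over its members, of the log2 CPM minus its mean over the 20 libraries. For 17 thalamic, hypothalamic and septal neuron markers it was -0.52, 1.84, 1.33, -0.53 and -0.64 in overactive amphetamine, 2.00, -0.93, 0.73, 1.34 and -0.62 in overactive saline, -0.85, -0.57, -0.55, -0.32 and -0.79 in control amphetamine and -1.15, 0.12, 0.71, 0.41 and -1.01 in control saline libraries. The libraries highest in these markers were overactive saline 1, overactive amphetamine 2, overactive saline 4 and overactive amphetamine 3. Several results below are given with and without these 4 libraries, a choice made after the data were seen. In bulk tissue, fewer cells of a type and less RNA per cell cannot be told apart.

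No gene passed the test of the interaction. Of 17206 genes, 0 (0%) had a Benjamini-Hochberg adjusted p under 0.05 in edgeR's quasi-likelihood test, and the smallest adjusted p was 0.9999. At an unadjusted p under 0.05 there were 510 genes (2.96%), 270 with a positive value (1.57%) and 240 with a negative value (1.39%), where 5% of the genes tested would be 860. At an unadjusted p under 0.01 there were 65 genes, where 1% would be 172. DESeq2 also called 0 genes, and 570 were under 0.05 before adjustment. For limma-voom with sample weights the counts were 0 and 697. A positive value means that the ratio of amphetamine to saline was higher in the overactive line, and a log2 value of 1 is a 2-fold difference between the ratios.

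Neither response passed by itself. In the overactive line 0 genes (0%) passed in edgeR and 1382 (8.03%) had an unadjusted p under 0.05. In the control line 0 genes (0%) passed in edgeR and 957 (5.56%) had an unadjusted p under 0.05. The smallest edgeR adjusted p was 0.357 in the overactive line and 0.856 in the control line. DESeq2 called 40 genes in the overactive line and 0 in the control line. Leaving out the 4 libraries highest in thalamic markers leaves 3 against 3 overactive mice. There 0 genes passed the interaction and 1221 of 17206 had an unadjusted p under 0.05. That count is above the 860 that 5% of the genes tested makes, where the 510 from all 20 libraries were below it. In the edgeR fit without the 4 libraries 29 genes passed in the overactive line, among them Nrn1 at log2 2.04 and Tmem47 at -0.93. The overactive mice left there did not overlap in the level of cortical and hippocampal excitatory neuron markers. It was 0.665, 0.799 and 0.11 in overactive amphetamine 1, 4 and 5. In overactive saline 2, 3 and 5 it was -1.132, -1.167 and -0.405. The part of this difference in the 29 calls was not tested.

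**Figure D1:**
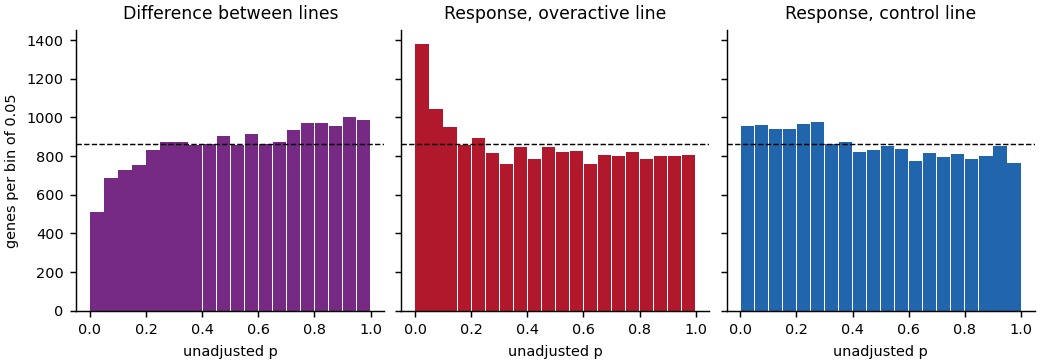
Unadjusted edgeR p-values of 17206 genes in bins of 0.05, for the difference between the lines (left), the response in the overactive line (middle) and the response in the control line (right), with genes per bin on the y axis. The dashed line marks 860 genes per bin, an even spread; the first bin of the difference holds 510 genes and lies below that line, and the first bin of the overactive line holds 1382 and lies above it.

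The measurements bound how large an interaction most genes could have. The median standard error (SE) was 0.155 for the interaction and 0.11 for the response within each line, all on the log2 scale. Among the 14958 genes with a mean of at least 1 CPM, the 95% interval of the interaction lay within a 2-fold difference in either direction for 89% and within a 1.5-fold difference for 71.4%. The middle 90% of their interaction values ran from -0.32 to 0.34. Precision followed the level of expression. For the 2642 genes at 100 CPM or more the median SE was 0.09 and 99.1% of the intervals lay within 2-fold. For the 7985 genes from 10 to under 100 CPM these values were 0.11 and 96.7%. The 4332 genes from 1 to under 10 CPM had a median SE of 0.27 and 68.5% of intervals within 2-fold. Below 1 CPM, for 2247 genes, the median SE was 0.54 and 14.1% of the intervals lay within 2-fold. Under 1 CPM lay also the gene with the smallest unadjusted p of all, Tcf23, at a mean of 0.302 CPM (log2 -2.77, SE 0.61, edgeR adjusted p = 0.9999), singled out once its value had been seen.

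The responses of the lines, which share no library, were alike in direction for more genes than not. Among genes of at least 1 CPM, 61.6% had the same sign in both lines, and the fold changes correlated across genes with a Pearson r of 0.24 and a Spearman rho of 0.29. Genes are not independent replicates, so this is a description. The median absolute log2 response was 0.07 in the overactive line and 0.07 in the control line, and that of the interaction was 0.08. Of the 510 genes at an unadjusted interaction p under 0.05, 458 (89.8%) had opposite signs in the lines, against 39.6% of all genes tested. These were 236 genes higher under amphetamine in the overactive line and lower in the control line, and 222 genes with the reverse. Another 25 were above 0 in both lines with the larger value in the overactive line, and 10 were below 0 in both with the lower value there. Genes with a smaller response in the overactive line than in the control line, in the same direction, numbered 8 above 0 and 9 below 0. A small p for a difference favours responses of opposite sign by its construction.

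**Figure D2:**
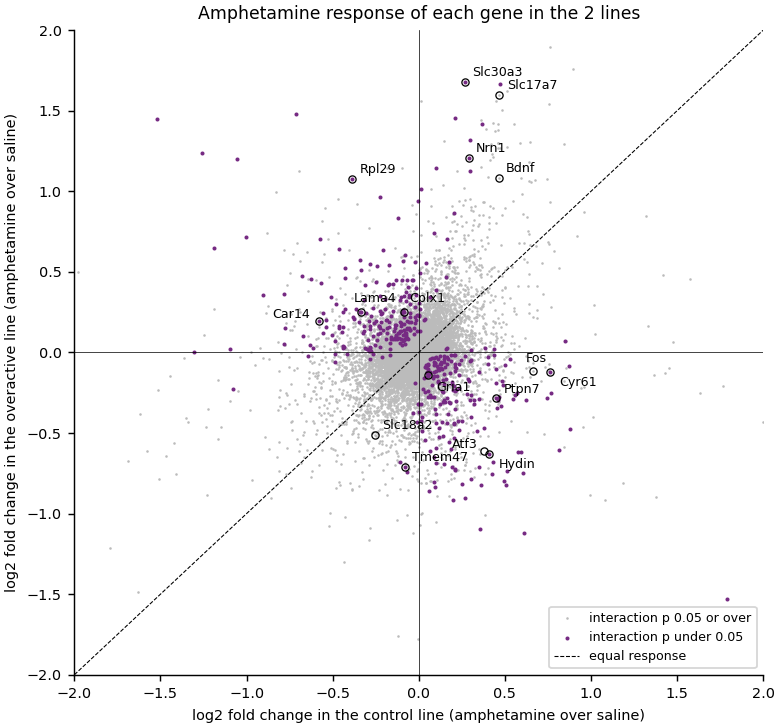
Log2 fold change of amphetamine over saline for each gene with a mean of at least 1 CPM, in the overactive line (y axis) against the control line (x axis), with 8 genes outside the plotted range of 2 in either direction. Purple points have an unadjusted interaction p under 0.05 and lie mostly in the upper left and lower right parts, while the grey bulk lies around 0; circles mark named genes, among them Atf3, whose mean is under 1 CPM.

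On the positive side, the 12 genes with the smallest interaction p at 1 CPM or more and with a single symbol were Cplx1, Syk, Lama4, Aim1, Car14, Srsf6, Panx2, Stap2, Adam11, Cyth3, Cacng7 and Cyp2t4. They were chosen by that p, so their p-values are given as descriptions, and each had an edgeR adjusted p of 0.9999. Cplx1 (chromosome 5, 108518554 to 108550027, here and below the span of the locus in the deposited table, whose build the submitters' processing notes give as mm10) encodes complexin 1, which binds the SNARE complex and controls vesicle release. In overactive amphetamine mice Cplx1 was at 628, 639.6, 523, 623 and 573 CPM, and in overactive saline mice at 566, 473, 499, 521 and 457 CPM. Control amphetamine mice had 474, 521, 509.7, 544 and 469.5 CPM of Cplx1, and control saline mice 531, 492, 554, 531 and 558 CPM. In the overactive line every amphetamine library but the third lay above every saline library, and the third lay below overactive saline 1. The control groups overlapped. Its interaction was 0.33 (SE 0.09, 95% interval 0.14 to 0.53, unadjusted p = 0.00184, edgeR adjusted p = 0.9999), from log2 responses of 0.25 in the overactive line and -0.08 in the control line. Without the 4 libraries highest in thalamic markers its overactive-line response passed, at 0.36 (SE 0.07, edgeR adjusted p = 0.0429). In that fit the overactive groups did not overlap in cortical marker level.

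Cacng7 (chromosome 7, 3331749 to 3370486) encodes an auxiliary subunit that binds AMPA-type glutamate receptors. The overactive amphetamine libraries held 188, 171, 159, 183 and 163 CPM of Cacng7, and the overactive saline libraries 146, 142, 147, 152 and 152 CPM. Values of Cacng7 were 155, 166, 162, 161 and 146 CPM in control amphetamine mice, against 169.6, 158, 144, 156 and 163 CPM in control saline mice. The overactive groups did not overlap and the control groups covered the same range. With log2 responses of 0.23 in the overactive line and 0.00 in the control line, Cacng7 had an interaction of 0.23 (SE 0.07, 95% interval 0.07 to 0.38, unadjusted p = 0.00572, edgeR adjusted p = 0.9999). Panx2, of the pannexin channel family, showed a similar layout. Panx2 measured 75.4, 88.5, 77.8, 91.3 and 81.8 CPM in overactive amphetamine mice, against 79.5, 66.3, 62.3, 77.8 and 60.3 CPM in overactive saline mice. For the control line, Panx2 was at 69.6, 77.1, 76.1, 73 and 64.9 CPM under amphetamine and at 74.8, 69.6, 76.3, 84.6 and 94.7 CPM after saline. Its overactive amphetamine values lay mostly above saline, with overactive saline 1 and 4 inside the amphetamine range. Panx2 thus had an interaction of 0.41 (SE 0.13, 95% interval 0.15 to 0.67, unadjusted p = 0.00411, edgeR adjusted p = 0.9999), the difference of log2 responses of 0.26 in the overactive line and -0.15 in the control line. Adam11, a neuronal ADAM family member without protease activity, had a log2 response of 0.34 in the overactive line and -0.10 in the control line, and Cyth3, an exchange factor for ARF GTPases, had 0.24 and -0.05. Cyth3 ranged from 32.1 to 34.8 CPM in overactive amphetamine mice and from 25 to 30.6 CPM in overactive saline mice, again without overlap.

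In other genes of this set the control line carried more of the difference. Lama4 (chromosome 10, 38965180 to 39110188) encodes the laminin alpha 4 chain of vascular basement membranes. Levels of Lama4 were 5.3, 3.97, 3.77, 4.66 and 3.84 CPM in the overactive amphetamine group and 3.64, 3.66, 3.72, 4.21 and 2.9 CPM in the overactive saline group. The control amphetamine group was at 4.27, 3.45, 3.89, 4.37 and 4.32 CPM and the control saline group at 4.45, 5.24, 5.49, 5.54 and 4.93 CPM. Here the control groups did not overlap, with every amphetamine mouse below every saline mouse, and the overactive groups did overlap. An interaction of 0.58 resulted for Lama4 (SE 0.17, 95% interval 0.23 to 0.94, unadjusted p = 0.00256, edgeR adjusted p = 0.9999), at log2 responses of 0.25 in the overactive line and -0.34 in the control line. Car14, a membrane-bound carbonic anhydrase, followed the same order. Across the overactive line, Car14 was at 11, 14.2, 15.3, 8.43 and 9.71 CPM under amphetamine and at 10.5, 8.31, 11.7, 10.4 and 10.3 CPM after saline. Among control amphetamine mice Car14 was at 6.89, 6.36, 5.83, 5.33 and 6.48 CPM, and among control saline mice at 6.38, 8.47, 10.2, 11.9 and 9.25 CPM. Control amphetamine libraries were the lowest of all, and 1 control saline library lay among them. This gave Car14 an interaction of 0.78 (SE 0.23, 95% interval 0.29 to 1.26, unadjusted p = 0.00334, edgeR adjusted p = 0.9999), with log2 responses of 0.19 in the overactive line and -0.58 in the control line. Srsf6, a splicing factor, ran from 137 to 152 CPM in control amphetamine mice and from 153 to 163 CPM in control saline mice, with no overlap, at log2 responses of 0.09 in the overactive line and -0.14 in the control line. Cyp2t4, a cytochrome P450 gene, had a log2 response of 0.05 in the overactive line and -0.78 in the control line, where 3 of 5 saline libraries stood at 2.9 to 3.15 CPM and the other two within the amphetamine range or just above it.

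Syk, a tyrosine kinase of immune receptor signalling, differed in both directions. Syk was at 4.61, 4.5, 3.64, 4.38 and 3.92 CPM in overactive amphetamine mice and at 3.41, 3.11, 3.53, 3.07 and 3.59 CPM in overactive saline mice. It was at 3.92, 4.44, 4.12, 3.22 and 3.53 CPM in control amphetamine mice and at 4.16, 4.33, 4.93, 4.18 and 4.43 CPM in control saline mice. The overactive groups were apart, with amphetamine higher, and the control amphetamine libraries lay lower on average with overlap. The log2 response was 0.33 in the overactive line and -0.20 in the control line, an interaction of 0.53 (SE 0.15, 95% interval 0.22 to 0.84, unadjusted p = 0.00187, edgeR adjusted p = 0.9999). Aim1, now named Crybg1, had log2 responses of 0.43 in the overactive line and -0.17 in the control line, and Stap2, a signalling adaptor, had 0.34 and -0.51 at about 1 CPM.

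**Figure D3:**
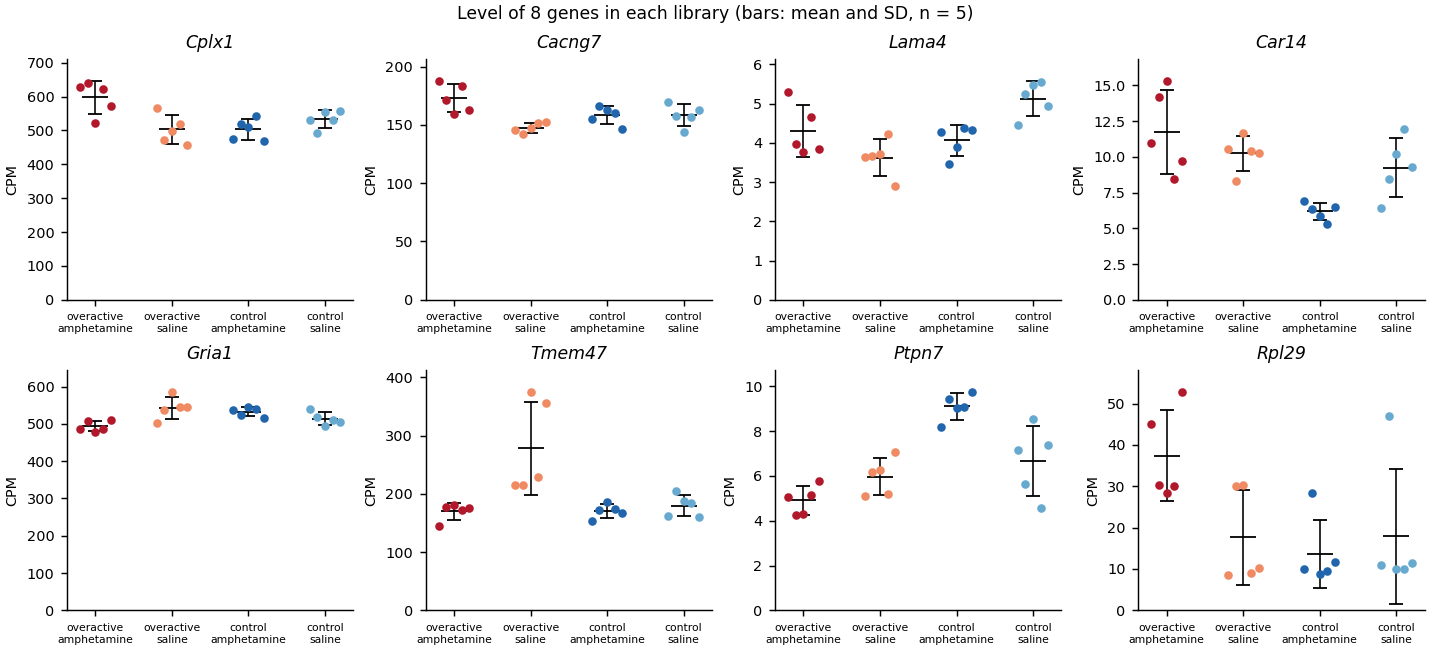
CPM of 8 genes in each of the 20 libraries (y axis, from 0), in the order overactive amphetamine, overactive saline, control amphetamine and control saline; points are mice, bars are mean and SD of 5. Cacng7 and Tmem47 separate the overactive groups, Lama4 separates the control groups, and Rpl29 sits at 3 separate heights over all 20 libraries.

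On the negative side, the 12 genes were Cxx1a, Ptpn7, 2810474O19Rik, Armc10, 2610002M06Rik, Gria1, Gm19941, Ysk4, Tmem47, Gm11721, Sertad4 and C030019I05Rik, each again with an edgeR adjusted p of 0.9999. Gria1 (chromosome 11, 57011618 to 57330244) encodes the GluA1 subunit of AMPA receptors, the receptors that Cacng7 associates with. In overactive amphetamine mice Gria1 was at 487, 507, 478, 487 and 509.8 CPM, and in overactive saline mice at 502, 538, 587, 544 and 546 CPM. Control amphetamine mice had 536, 525, 546, 539 and 515 CPM of Gria1, and control saline mice 539.8, 518, 493, 511 and 504 CPM. Overactive amphetamine mice were lower than saline mice with 1 saline library inside their range, and in the control line most amphetamine libraries were slightly higher. Its interaction was -0.19 (SE 0.06, 95% interval -0.31 to -0.07, unadjusted p = 0.00343, edgeR adjusted p = 0.9999), from log2 responses of -0.14 in the overactive line and 0.05 in the control line. The interval lies within a 1.5-fold difference in response.

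Tmem47, a membrane protein of cell junctions, had the smallest overactive-line p among the named genes. The overactive amphetamine libraries held 145, 177, 181, 172 and 176 CPM of Tmem47, and the overactive saline libraries 215, 216, 376, 228 and 355 CPM. Values of Tmem47 were 153, 172, 186, 173 and 167 CPM in control amphetamine mice, against 163, 205, 187, 184 and 161 CPM in control saline mice. Every overactive amphetamine library lay below every overactive saline library, and overactive saline 3 and 5 were far above the rest, while the control groups overlapped. With log2 responses of -0.71 in the overactive line and -0.08 in the control line, Tmem47 had an interaction of -0.63 (SE 0.19, 95% interval -1.03 to -0.23, unadjusted p = 0.00409, edgeR adjusted p = 0.9999). Its response within the overactive line was -0.71 on the log2 scale (SE 0.14, edgeR adjusted p = 0.357), and DESeq2 called it there with an adjusted p of 0.00556. Without overactive saline 3 the interaction value was -0.50.

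C030019I05Rik, now named Fndc9, had the same layout of groups. C030019I05Rik measured 10.2, 12.9, 10.7, 9.4 and 9.53 CPM in overactive amphetamine mice, against 14.1, 14, 20.4, 16.7 and 15.2 CPM in overactive saline mice. For the control line, C030019I05Rik was at 9.19, 9.72, 14.2, 10.3 and 12.4 CPM under amphetamine and at 13.5, 11.5, 10.6, 10.4 and 7.29 CPM after saline. The overactive groups did not overlap. C030019I05Rik thus had an interaction of -0.68 (SE 0.22, 95% interval -1.13 to -0.23, unadjusted p = 0.00547, edgeR adjusted p = 0.9999), the difference of log2 responses of -0.61 in the overactive line and 0.07 in the control line. Gm19941 was also apart in the overactive line, from 7.8 to 11.2 CPM in amphetamine mice and from 11.4 to 15.4 CPM in saline mice, with a control-line log2 response of 0.10. Ysk4, now named Map3k19, a kinase of the MAP3K family, had log2 responses of -0.45 in the overactive line and 0.21 in the control line.

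Ptpn7 encodes a tyrosine phosphatase known from blood cells that acts on MAP kinases. Levels of Ptpn7 were 5.08, 4.25, 4.32, 5.14 and 5.75 CPM in the overactive amphetamine group and 5.12, 6.17, 6.28, 5.19 and 7.08 CPM in the overactive saline group. The control amphetamine group was at 8.19, 9.43, 9.02, 9.1 and 9.77 CPM and the control saline group at 7.15, 5.63, 8.56, 4.58 and 7.38 CPM. Control amphetamine mice were the highest group, and control saline mice spread widely and reached up into it. An interaction of -0.73 resulted for Ptpn7 (SE 0.20, 95% interval -1.15 to -0.31, unadjusted p = 0.00169, edgeR adjusted p = 0.9999), at log2 responses of -0.28 in the overactive line and 0.45 in the control line. Cxx1a, now named Rtl8a, belongs to a family of nearly identical X-linked copies derived from a retrotransposon, so its counts are uncertain. Across the overactive line, Cxx1a was at 29.2, 26.7, 25.3, 24.2 and 31.3 CPM under amphetamine and at 26.5, 32.6, 36, 37 and 35.5 CPM after saline. Among control amphetamine mice Cxx1a was at 33.7, 36.2, 34.9, 35.3 and 33.1 CPM, and among control saline mice at 34.3, 34.1, 23.8, 23.8 and 22.8 CPM. In control saline mice 3 libraries stood at 22.8 to 23.8 CPM and the other two inside the amphetamine range. This gave Cxx1a an interaction of -0.61 (SE 0.17, 95% interval -0.96 to -0.27, unadjusted p = 0.00148, edgeR adjusted p = 0.9999), with log2 responses of -0.29 in the overactive line and 0.32 in the control line. 2810474O19Rik, now named Resf1, a silencer of retroelements, had log2 responses of -0.18 in the overactive line and 0.11 in the control line, Armc10, an armadillo repeat protein, had -0.23 and 0.22, and Sertad4 had -0.32 and 0.32. The remaining pair had opposite signs too, 2610002M06Rik with -0.19 and 0.14 and Gm11721 with -0.62 and 0.59.

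Leaving out any 1 library kept the sign of each of these positive and negative genes. Their choice by small p makes this likely beforehand, so it is no separate evidence for them. The interaction values of Cplx1 stayed between 0.30 and 0.37 and those of Gria1 between -0.22 and -0.17. With the cortical marker level as a covariate values moved both ways. Adam11 went from 0.45 to 0.28, Cacng7 from 0.23 to 0.17 and Sertad4 from -0.64 to -0.45. Car14 went from 0.78 to 0.93 and Ptpn7 from -0.73 to -0.87. These examples were picked with their values in view.

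Immediate early genes, which neurons switch on within minutes of stimulation, leaned to lower values of the interaction without passing. Of 35 tested, 0 passed, 29 were below 0, 2 had an unadjusted p under 0.05 and the median was -0.22. Over all genes tested the median was 0.00 and 51.4% were above 0, for comparison with this and the later lists. Responses were above 0 for 8306 of all 17206 genes in the overactive line and 8403 in the control line. Members of a list are not independent, so their counts are descriptions. In the control line 34 of 35 immediate early genes had a response above 0 with a median of 0.19. In the overactive line 15 of 35 did, with a median of -0.06. One library carried much of this. The list level was 0.23, -0.34, -0.34, 0.30 and 0.08 in overactive amphetamine, -0.18, -0.18, 0.63, -0.21 and -0.20 in overactive saline, -0.29, 0.40, -0.13, 0.24 and 0.45 in control amphetamine and 0.20, 0.01, -0.27, -0.28 and -0.10 in control saline libraries. Overactive saline 3 was far above the other 4 of its group, and the remaining groups overlapped. Without it the median was -0.01, with 16 members above 0, and the median response in the overactive line was 0.15. With the cortical marker level as a covariate the list median was -0.33 with 2 of 35 above 0, Arc had -0.85 and Egr1 -0.47. With both marker levels the median was -0.26 with 0 of 35 above 0, and without the 4 libraries highest in thalamic markers it was -0.21 with 13 above 0. The values of single genes without overactive saline 3 are given beside them.

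Fos encodes a subunit of the AP-1 transcription factor. Fos was at 21.2, 10.9, 7.55, 17.7 and 12 CPM in overactive amphetamine mice and at 13.5, 9.13, 32.5, 11.9 and 8.27 CPM in overactive saline mice. It was at 5.75, 20.1, 9.11, 19 and 27.9 CPM in control amphetamine mice and at 15.1, 12.2, 7.08, 9 and 8.36 CPM in control saline mice. Overactive saline 3 was the highest library, control amphetamine 5 came next, and control saline mice were at 15.1 CPM or less, with all groups overlapping. The log2 response was -0.12 in the overactive line and 0.66 in the control line, an interaction of -0.78 (SE 0.58, 95% interval -2.00 to 0.44, unadjusted p = 0.197, edgeR adjusted p = 0.9999). Without overactive saline 3 its value was -0.29. Arc, a regulator of synaptic AMPA receptors, was as uneven. In overactive amphetamine mice Arc was at 173, 82.7, 76.3, 215 and 141 CPM, and in overactive saline mice at 85, 111, 286, 99 and 80.4 CPM. Control amphetamine mice had 40, 202, 80.3, 161 and 215 CPM of Arc, and control saline mice 171, 113, 53, 56.9 and 89.9 CPM. Within each amphetamine group the libraries differed by more than the group means. Its interaction was -0.48 (SE 0.64, 95% interval -1.82 to 0.87, unadjusted p = 0.468, edgeR adjusted p = 0.9999), from log2 responses of 0.06 in the overactive line and 0.53 in the control line. Without overactive saline 3 its value was 0.01. Egr1, a zinc finger factor, had -0.28 (SE 0.37) and -0.01 without that library, and Npas4, a transcription factor specific to neurons, had -0.39 (SE 0.39) and -0.06 without it.

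Atf3 and Cyr61 were the members with an unadjusted p under 0.05. Atf3 is a stress-induced transcription factor. The overactive amphetamine libraries held 0.573, 0.438, 0.567, 0.503 and 0.633 CPM of Atf3, and the overactive saline libraries 0.723, 0.522, 1.66, 0.544 and 0.708 CPM. Values of Atf3 were 0.649, 0.735, 0.609, 0.704 and 0.792 CPM in control amphetamine mice, against 0.662, 0.591, 0.576, 0.402 and 0.457 CPM in control saline mice. Overactive saline 3 was again the highest library of all. With log2 responses of -0.61 in the overactive line and 0.38 in the control line, Atf3 had an interaction of -0.99 (SE 0.38, 95% interval -1.79 to -0.19, unadjusted p = 0.0174, edgeR adjusted p = 0.9999). Its value without that library was -0.58. Cyr61, now named Ccn1, a secreted matrix protein, had 1 mouse far above the rest. Cyr61 measured 4.24, 3.56, 4.08, 5.56 and 4.26 CPM in overactive amphetamine mice, against 5.14, 4.38, 6.17, 4.38 and 3.54 CPM in overactive saline mice. For the control line, Cyr61 was at 3.7, 3.64, 4.21, 5.38 and 12.4 CPM under amphetamine and at 3.6, 3.18, 3.39, 3.42 and 3.7 CPM after saline. Control amphetamine 5, at 12.4 CPM, stood above all other libraries. Cyr61 thus had an interaction of -0.88 (SE 0.38, 95% interval -1.67 to -0.10, unadjusted p = 0.0293, edgeR adjusted p = 0.9999), the difference of log2 responses of -0.12 in the overactive line and 0.76 in the control line. Without control amphetamine 5 it was -0.41. Nr4a2, a nuclear receptor, went the other way with 0.71 (SE 0.61), and Egr2 had the lowest value of the list, -1.12 (SE 0.66), both picked once their values had been seen.

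The promoters of these genes are shown because many carry TGACG, a short form of the cAMP response element that CREB binds downstream of D1 receptors. They are RefSeq sequences of GRCm38.p6, 5′ to 3′ on the strand of the gene, from 250 bases before to 50 bases after the start. Capitals mark the short element TGACG or its reverse complement CGTCA. Fos lies at chr12:85473640-85473939 on the plus strand, Npas4 at chr19:4989922-4990221 on the minus strand and Atf3 at chr1:191183284-191183583 on the minus strand.
Fos: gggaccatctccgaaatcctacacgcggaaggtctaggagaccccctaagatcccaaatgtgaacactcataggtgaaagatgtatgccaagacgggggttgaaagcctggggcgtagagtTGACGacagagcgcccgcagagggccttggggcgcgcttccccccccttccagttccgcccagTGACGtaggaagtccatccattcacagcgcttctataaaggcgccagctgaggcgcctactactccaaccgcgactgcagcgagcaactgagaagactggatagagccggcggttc
Npas4: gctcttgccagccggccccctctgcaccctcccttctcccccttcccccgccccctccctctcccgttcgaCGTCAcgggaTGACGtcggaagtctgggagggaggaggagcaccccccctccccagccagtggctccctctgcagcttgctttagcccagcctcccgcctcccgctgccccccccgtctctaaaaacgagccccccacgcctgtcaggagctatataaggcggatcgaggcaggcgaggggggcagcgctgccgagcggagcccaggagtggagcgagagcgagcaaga
Atf3: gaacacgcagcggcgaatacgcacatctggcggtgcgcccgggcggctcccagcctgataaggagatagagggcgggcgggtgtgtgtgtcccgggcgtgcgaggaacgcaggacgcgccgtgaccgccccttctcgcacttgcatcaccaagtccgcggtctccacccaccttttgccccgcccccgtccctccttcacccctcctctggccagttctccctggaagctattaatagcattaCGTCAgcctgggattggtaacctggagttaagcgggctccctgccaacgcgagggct
The short element occurred in 17 of 29 promoters of the list (58.6%) and in 5681 of 27025 promoters overall (21%), counting either strand. The full element TGACGTCA, which contains it, occurred in 2 of 29 (6.9%) and in 507 of 27025 (1.88%). None of the promoters shown holds the full element. A match is a description of the letters and not a site of binding. Fos and Npas4 each held 2 short elements and Atf3 held 1, and their interaction values were -0.78, -0.39 and -0.99. So few genes cannot show whether the interaction follows the number of elements.

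Delayed activity-regulated genes, many of them induced after the first wave, had a median of -0.06, with 24 of 33 below 0, 0 passing and 2 at an unadjusted p under 0.05. Their median response was 0.01 in the overactive line and 0.12 in the control line. Tiparp, an ADP-ribosyltransferase, had log2 -0.45 (SE 0.17, edgeR adjusted p = 0.9999). Levels of Tiparp were 21.9, 21.9, 21.2, 25.6 and 24.9 CPM in the overactive amphetamine group and 28.8, 27, 33.2, 23.6 and 23.4 CPM in the overactive saline group. The control amphetamine group was at 19.2, 23, 19.1, 26.7 and 28.2 CPM and the control saline group at 20.9, 22.8, 17.5, 20.6 and 18.6 CPM. Overactive saline libraries were mostly above the amphetamine ones, and the control groups were the other way round with overlap. Nrn1, neuritin, and Bdnf, the neurotrophin, had values of the opposite sign. Across the overactive line, Nrn1 was at 92.9, 44.7, 51.2, 93.5 and 46.1 CPM under amphetamine and at 48.5, 17.4, 15.9, 37.1 and 23.7 CPM after saline. Among control amphetamine mice Nrn1 was at 62.4, 90.6, 59.2, 80.5 and 43.4 CPM, and among control saline mice at 78, 43.7, 48.1, 42.3 and 62.8 CPM. Overactive saline mice were the lowest group in Nrn1, and the first of them lay among the amphetamine libraries. This gave Nrn1 an interaction of 0.92 (SE 0.43, 95% interval 0.02 to 1.82, unadjusted p = 0.0459, edgeR adjusted p = 0.9999), with log2 responses of 1.21 in the overactive line and 0.29 in the control line. Nrn1 is also counted among the cortical markers below, and with their level as a covariate its interaction was 0.34. It was 1.75 without the 4 libraries highest in thalamic markers. Bdnf was at 20, 6, 8.83, 22.4 and 12.2 CPM in overactive amphetamine mice and at 8.6, 3.41, 6.81, 7.54 and 6.42 CPM in overactive saline mice. It was at 11.5, 22.9, 12.5, 15.3 and 9.48 CPM in control amphetamine mice and at 18, 7.63, 9.75, 7.64 and 8.96 CPM in control saline mice. Overactive saline mice were all at 8.6 CPM or less, and control saline 1 was high in its group. The log2 response was 1.09 in the overactive line and 0.46 in the control line, an interaction of 0.62 (SE 0.48, 95% interval -0.39 to 1.63, unadjusted p = 0.213, edgeR adjusted p = 0.9999). With the cortical marker level as a covariate Bdnf took the other sign, -0.20, and it had 1.26 without the 4 libraries highest in thalamic markers. Cdkn1a, a cell cycle inhibitor, and Vgf, a secreted peptide precursor, had -0.63 (SE 0.34) and -0.40 (SE 0.21), a pair picked once their values had been seen.

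Genes of dopamine signalling had 11 of 14 values below 0 and a median of -0.13, with 0 passing and 0 at an unadjusted p under 0.05. The median response was -0.11 in the overactive line and -0.04 in the control line. Slc18a2, the vesicular monoamine transporter, loads dopamine into vesicles. Its counted locus runs to 59349722, past the end of the gene at 59296012, and counts from beyond the gene were not separated. In overactive amphetamine mice Slc18a2 was at 7, 8.94, 9.73, 8.56 and 7.53 CPM, and in overactive saline mice at 12.1, 10.1, 12.4, 12.8 and 12 CPM. Control amphetamine mice had 6.72, 7.13, 9.92, 8.52 and 8.83 CPM of Slc18a2, and control saline mice 9.43, 9.18, 11.2, 10.6 and 8.63 CPM. Amphetamine mice had the lower values in both lines, without overlap in the overactive line and with overlap in the control line. Its interaction was -0.26 (SE 0.16, 95% interval -0.59 to 0.08, unadjusted p = 0.129, edgeR adjusted p = 0.9999), from log2 responses of -0.51 in the overactive line and -0.25 in the control line. The response within the overactive line was -0.51 (SE 0.11, edgeR adjusted p = 0.357), and DESeq2 called it there with an adjusted p of 0.0276. The receptors Drd1a and Drd2 had interaction values of -0.14 (SE 0.19) and -0.23 (SE 0.17). Th, tyrosine hydroxylase, had -0.26 (SE 0.36), and its range over leaving out each library was -0.59 to -0.05. Slc6a3, the dopamine transporter, also picked after its value was seen, had -0.18 with an SE of 0.64.

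Striatal projection neuron genes had 30 of 32 values below 0 and a median of -0.18, with 0 passing and 0 at an unadjusted p under 0.05. In the overactive line 4 of 32 responses were above 0, with a median of -0.13, and in the control line 23 of 32, with a median of 0.06. Penk, the enkephalin precursor of D2 receptor neurons, was the lowest. The overactive amphetamine libraries held 1063, 1006, 882, 915 and 1256 CPM of Penk, and the overactive saline libraries 924, 1534, 1371, 1028 and 1258 CPM. Values of Penk were 1200, 1365, 1101, 1259 and 1132 CPM in control amphetamine mice, against 1025, 1390, 1043, 1023 and 1288 CPM in control saline mice. All groups overlapped, and the highest library was overactive saline 2. With log2 responses of -0.26 in the overactive line and 0.07 in the control line, Penk had an interaction of -0.33 (SE 0.18, 95% interval -0.71 to 0.06, unadjusted p = 0.0897, edgeR adjusted p = 0.9999). Pdyn, the dynorphin precursor of D1 receptor neurons, had -0.30 (SE 0.22), Tac1, the substance P precursor, -0.14 (SE 0.17), and Ppp1r1b, encoding DARPP-32 and picked after its value was seen, -0.11 (SE 0.18). The list level was -0.12, -0.27, -0.13, -0.23 and 0.16 in overactive amphetamine, -0.32, 0.26, 0.13, -0.21 and 0.17 in overactive saline, 0.09, 0.02, 0.04, 0.04 and 0.19 in control amphetamine and 0.00, 0.13, -0.03, -0.07 and 0.14 in control saline libraries. Overactive saline 1 and 4 were low and overactive saline 2, 3 and 5 high, so this group alone spanned most of the range. Without the 4 libraries highest in thalamic markers the median was -0.28. With the cortical and thalamic marker levels as covariates, added after the data were seen, the median was -0.01 with 15 of 32 above 0. Drd1a and Tac1 took the other sign there, 0.05 and 0.03.

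Receptor and channel families were centred near 0. Glutamate receptor subunits had 11 of 23 values above 0 and a median of 0.00, with Gria1 as the member of smallest p. GABA receptor subunits had 8 of 14 above 0 and a median of 0.03. Their only member at an unadjusted p under 0.05 was Gabbr1, a subunit of the metabotropic GABA receptor. Gabbr1 measured 889, 814, 812, 837 and 938 CPM in overactive amphetamine mice, against 885, 926, 872, 814 and 863 CPM in overactive saline mice. For the control line, Gabbr1 was at 958, 904, 866, 940.0 and 904 CPM under amphetamine and at 815, 846, 819.6, 839 and 879 CPM after saline. The overactive groups covered the same range, and control amphetamine mice were higher with 1 saline library above the lowest of them. Gabbr1 thus had an interaction of -0.15 (SE 0.07, 95% interval -0.28 to -0.01, unadjusted p = 0.0391, edgeR adjusted p = 0.9999), the difference of log2 responses of -0.02 in the overactive line and 0.12 in the control line. Potassium channel genes had 22 of 35 above 0 and a median of 0.08. Kcnj9, a G protein-gated channel subunit, had the largest value of that list. Levels of Kcnj9 were 90.3, 73.3, 75.8, 88.5 and 64.4 CPM in the overactive amphetamine group and 66, 48.8, 45.9, 54.5 and 51.8 CPM in the overactive saline group. The control amphetamine group was at 71, 92.7, 67.4, 73.3 and 67.3 CPM and the control saline group at 83.5, 60.4, 66.1, 58.2 and 92.4 CPM. Overactive saline mice were low, 4 of 5 below every other library. An interaction of 0.51 resulted for Kcnj9 (SE 0.19, 95% interval 0.12 to 0.91, unadjusted p = 0.0139, edgeR adjusted p = 0.9999), at log2 responses of 0.56 in the overactive line and 0.04 in the control line. With the cortical marker level as a covariate Kcnj9 had 0.26. Kcnj11, the pore of ATP-sensitive channels, had 0.24 (SE 0.10, edgeR adjusted p = 0.9999). With the cortical marker level as a covariate the potassium channel median was -0.01. Striatal interneuron genes had 7 of 16 above 0 and a median of -0.05.

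Glucocorticoid-responsive genes had 15 of 21 below 0 and a median of -0.09, with Fkbp5, a receptor co-chaperone, at -0.25 (SE 0.16). Core clock genes had 9 of 16 above 0 and a median of 0.05. Heat shock and chaperone genes had 21 of 25 below 0 and a median of -0.04, with responses of -0.12 in the overactive line and -0.07 in the control line. Hspa1a, an inducible chaperone, had -0.41 (SE 0.39) and 0.01 without overactive saline 3. Cholesterol synthesis genes had a median of 0.06, and of 0.21 with 22 of 23 above 0 without the 4 libraries highest in thalamic markers. Oxidative phosphorylation genes had 56 of 71 above 0 at a median of 0.04, with 1 at an unadjusted p under 0.05, Cox5b, a cytochrome oxidase subunit (0.17, SE 0.08, edgeR adjusted p = 0.9999). Cytoplasmic ribosomal protein genes had 64 of 78 above 0 at a median of 0.03.

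One ribosomal gene stood out from its list. Across the overactive line, Rpl29 was at 45.1, 30.2, 28.4, 30.1 and 52.9 CPM under amphetamine and at 8.65, 30.1, 30.3, 9.03 and 10.3 CPM after saline. Among control amphetamine mice Rpl29 was at 9.99, 28.4, 8.85, 9.53 and 11.7 CPM, and among control saline mice at 10.9, 47.1, 10, 10 and 11.5 CPM. The values fell at 3 heights. There were 11 libraries at 8.65 to 11.7 CPM, of which 0 were overactive amphetamine, 3 overactive saline, 4 control amphetamine and 4 control saline. Another 6 libraries lay from about 28 to 30.3 CPM, of which 3, 2, 1 and 0 came from these groups in that order, and 3 libraries at 45.1 to 52.9 CPM, of which 2, 0, 0 and 1 did. This gave Rpl29 an interaction of 1.47 (SE 0.68, 95% interval 0.04 to 2.89, unadjusted p = 0.046, edgeR adjusted p = 0.9999), with log2 responses of 1.08 in the overactive line and -0.39 in the control line. Its value was 0.71 without control saline 2 and 1.91 without control amphetamine 2. Rpl29 has processed copies elsewhere in the genome that can share its reads, so its counts are uncertain. What sets the 3 heights was not tested, and no genotype of single mice is given in the sources used here.

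Vessel and meningeal markers were above 0 almost throughout, mostly through lower values under amphetamine in the control line. Endothelial cell markers had 16 of 17 above 0 and a median of 0.25, with 0 passing and 3 at an unadjusted p under 0.05. Their response had 12 of 17 members above 0 in the overactive line, at a median of 0.08, and 1 of 17 in the control line, at a median of -0.21. Pecam1, an adhesion molecule of endothelium, shows this. Pecam1 was at 15.7, 14.9, 14.1, 14.1 and 16.2 CPM in overactive amphetamine mice and at 12.5, 16.5, 17.7, 13.2 and 13.7 CPM in overactive saline mice. It was at 13.1, 13, 14.5, 12.7 and 13.2 CPM in control amphetamine mice and at 13, 18.6, 17.4, 15.9 and 17.6 CPM in control saline mice. In the control line 4 of 5 saline mice were above every amphetamine mouse, and in the overactive line the groups overlapped. The log2 response was 0.03 in the overactive line and -0.31 in the control line, an interaction of 0.34 (SE 0.14, 95% interval 0.04 to 0.63, unadjusted p = 0.027, edgeR adjusted p = 0.9999). Tek, the receptor of angiopoietins, had 0.41 (SE 0.14, edgeR adjusted p = 0.9999), and Cldn5, of the tight junction, 0.21 (SE 0.19). The exception was Ly6a at -1.39 (SE 0.74), picked once its value had been seen. Mural cell markers had 10 of 11 above 0 and a median of 0.22, with responses of 0.06 in the overactive line and -0.15 in the control line. Anpep, a peptidase of pericytes, had 0.89 (SE 0.32), and Vtn, vitronectin, 0.63 (SE 0.25), both with an edgeR adjusted p of 0.9999. Summed over the endothelial list, levels were 342 to 422 CPM in overactive amphetamine, 335 to 382 CPM in overactive saline, 308 to 343 CPM in control amphetamine and 333 to 395 CPM in control saline mice.

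Meningeal and fibroblast markers had 17 of 17 above 0, against 51.4% of all genes tested. Their median was 0.63, with 2 at an unadjusted p under 0.05. All 17 were below 0 in the control line, at a median of -0.47, and 9 of 17 were above 0 in the overactive line, at 0.06. Foxc1, a transcription factor of meninges and mural cells, had 0.63 (SE 0.25), and Bgn, biglycan of the matrix, 0.45 (SE 0.19), each with an edgeR adjusted p of 0.9999. The list level was 0.55, 0.39, -0.14, -0.15 and -0.61 in overactive amphetamine, -0.34, -0.76, 0.40, 0.68 and -0.57 in overactive saline, -0.02, -0.27, -0.63, 0.12 and -0.13 in control amphetamine and -0.07, -0.24, 1.07, 0.47 and 0.25 in control saline libraries. Control saline 3 was the highest library, and without it the median was 0.31. Lama4 likewise had lower values under amphetamine in the control line, and the part of these markers in it was not tested.

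Ependymal cell markers had 11 of 11 below 0 and a median of -0.81, with 1 at an unadjusted p under 0.05. All 11 were below 0 in the overactive line, at a median of -0.63, and 7 of 11 were above 0 in the control line, at 0.12. Hydin, a protein of the ciliary axoneme, was that member. In overactive amphetamine mice Hydin was at 1.62, 4.19, 7.31, 3.17 and 2.69 CPM, and in overactive saline mice at 5.66, 4.11, 6.77, 6.5 and 6.35 CPM. Control amphetamine mice had 3.57, 1.66, 2.84, 1.86 and 5.45 CPM of Hydin, and control saline mice 1.83, 2.25, 3.18, 2.06 and 2.28 CPM. Overactive saline mice were at 4.11 CPM or more, and overactive amphetamine mice spread from 1.62 to 7.31 CPM into and beyond their range. Its interaction was -1.04 (SE 0.48, 95% interval -2.04 to -0.04, unadjusted p = 0.0431, edgeR adjusted p = 0.9999), from log2 responses of -0.63 in the overactive line and 0.41 in the control line. Without overactive amphetamine 3 the list median was -1.34, and without the 4 libraries highest in thalamic markers it was -1.40, with Hydin at -1.60. Choroid plexus markers had 9 of 13 above 0 and a median of 0.49 and took the other sign, -1.15, without overactive amphetamine 3. With the replicate block the choroid plexus median was -0.50, with 1 member above 0, and leaving out the same 4 libraries gave 0.03. Ttr, transthyretin of the choroid plexus, ranged over 7.21 to 832 CPM in overactive amphetamine, 1.42 to 739 CPM in overactive saline, 0.957 to 216 CPM in control amphetamine and 1.06 to 654 CPM in control saline mice, and no direction can be read from it (0.97, SE 2.25). Red blood cell markers, 3 tested, had a median of 1.30, and of -0.39 without overactive amphetamine 5. In the lists of ventricle-lining and blood cells single libraries thus set the sign or the size.

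Glial lists were near 0. Medians were -0.07 for 17 astrocyte markers, 0.00 for 16 oligodendrocyte markers, -0.07 for 10 oligodendrocyte precursor markers and -0.04 for 19 microglia markers, and 0 members of these lists had an unadjusted p under 0.05.

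**Figure D4:**
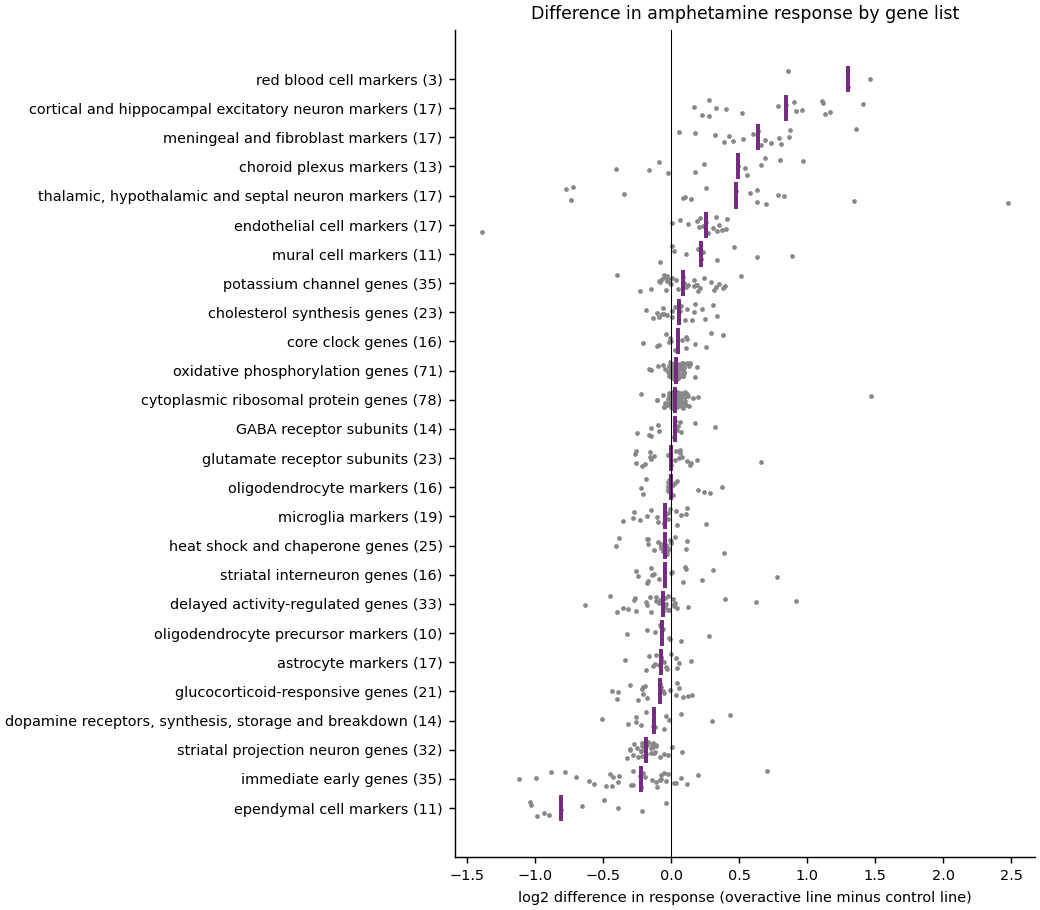
Log2 difference in response (x axis) of each tested member of the 26 gene lists, sorted by median, with the number tested in parentheses; grey points are genes and purple bars are medians. Most lists lie around 0, the cortical, meningeal and vessel lists lie to the right, and the ependymal, immediate early and projection neuron lists to the left.

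Markers of excitatory neurons of cortex and hippocampus had the largest median of the lists with more than 3 genes tested. All 17 tested were above 0, the median was 0.84, 0 passed and 2 had an unadjusted p under 0.05. The median response was 1.21 in the overactive line and 0.32 in the control line. Slc17a7, the vesicular glutamate transporter of cortical neurons, had a wide range. The overactive amphetamine libraries held 577, 127, 270.5, 715 and 381 CPM of Slc17a7, and the overactive saline libraries 189, 98.1, 78.5, 90.5 and 227 CPM. Values of Slc17a7 were 509, 602, 419, 518 and 465 CPM in control amphetamine mice, against 595, 211, 294, 193 and 522 CPM in control saline mice. Overactive saline mice were low, at 227 CPM or less, and 1 overactive amphetamine and 2 control saline libraries lay among them. With log2 responses of 1.60 in the overactive line and 0.47 in the control line, Slc17a7 had an interaction of 1.13 (SE 0.57, 95% interval -0.05 to 2.32, unadjusted p = 0.061, edgeR adjusted p = 0.9999). Slc30a3 encodes the zinc transporter of their vesicles. Slc30a3 measured 39.5, 10.4, 13.8, 40 and 16 CPM in overactive amphetamine mice, against 12.4, 4.35, 2.75, 7.54 and 10.4 CPM in overactive saline mice. For the control line, Slc30a3 was at 25.3, 47.6, 23.6, 31.4 and 20 CPM under amphetamine and at 33.6, 20, 18.6, 22.1 and 28.3 CPM after saline. All control mice and every overactive amphetamine library but number 2 were above every overactive saline library, and overactive saline 2, 3 and 4 were the lowest libraries of all. Its interaction was 1.41 (SE 0.56, edgeR adjusted p = 0.9999), 0.60 with the cortical marker level as a covariate and 2.18 without the 4 libraries highest in thalamic markers. The list level was 0.67, -0.65, 0.03, 0.80 and 0.11 in overactive amphetamine, -0.20, -1.13, -1.17, -0.91 and -0.41 in overactive saline, 0.43, 0.83, 0.28, 0.52 and 0.27 in control amphetamine and 0.57, -0.22, 0.10, -0.40 and 0.47 in control saline libraries. Summed over the list, levels were 440 to 1520 CPM in overactive amphetamine, 322 to 615 CPM in overactive saline, 996 to 1440 CPM in control amphetamine and 541 to 1300 CPM in control saline mice. None of its 17 tested members was at 0 throughout, which the filter on counts ensures. With this level as a covariate, the list median was -0.07 by construction and Slc17a7 had -0.07. Without the 4 libraries highest in thalamic markers the median was 1.31.

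Thalamic, hypothalamic and septal markers had 13 of 17 above 0 and a median of 0.47, with 0 at an unadjusted p under 0.05. Summed, they were at 136 to 488 CPM in overactive amphetamine, 177 to 586 CPM in overactive saline, 122 to 192 CPM in control amphetamine and 135 to 281 CPM in control saline mice. The median was 0.04 without overactive amphetamine 2 and 0.92 without overactive saline 1. It was 0.05 with 9 of 17 above 0 when all 4 libraries highest in these markers were left out. Zic1, a transcription factor of septum and thalamus, had -0.78 (SE 0.55), and Slc17a6, the glutamate transporter of thalamic neurons, 0.47 (SE 0.77), both picked with their values in view.

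**Figure D5:**
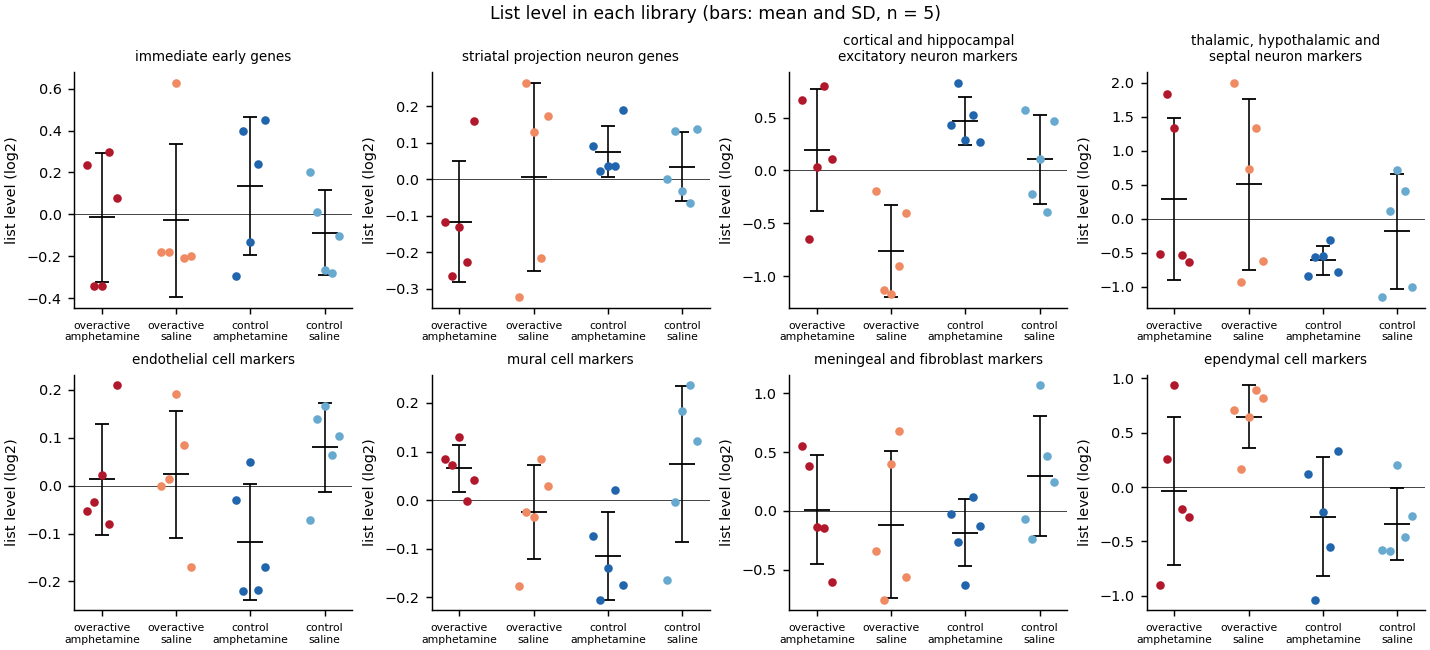
Level of 8 gene lists in each library (y axis, mean log2 CPM of the members relative to the mean of 20 libraries), for overactive amphetamine, overactive saline, control amphetamine and control saline mice; points are mice, bars are mean and SD of 5. Overactive saline mice are low in cortical markers and high in ependymal markers, 1 of them is high in immediate early genes, and thalamic markers are above 1.3 in 4 overactive libraries.

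Over the 601 distinct genes of the 26 lists that were tested, 19 (3.16%) had an unadjusted interaction p under 0.05, beside 2.96% of all genes tested. In 14 of the lists there was no such member. List medians were above 0 in 13 lists and below 0 in 13, and 15 of them were within 0.1 of 0.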

How the data were processed

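The authors deposited 1 table of expected counts per locus in 20 libraries, not scaled between samples, with 93.9% of the values whole within 0.01. The submitters' processing notes name mm10 and GRCm38, and the aligner and the counting tool are not given in the sources used here. Loci without a symbol (10576, 0.65% of counts) were left out. Loci with several symbols (626, of which 610 were tested) were kept. Expected counts were rounded to whole numbers and analysed in R 4.3.3 with edgeR 4.0.16, using filterByExpr on the 4 groups, TMM scaling and a single quasi-likelihood fit of the 4 group means to all 20 libraries. Tests were two-sided, adjusted by Benjamini-Hochberg over all 17206 genes tested, with a threshold of 0.05. Intervals are 95%, from the quasi-likelihood SE. CPM are TMM-scaled, and list levels use log2 CPM with a prior count of 2. Positions and symbols were checked in RefSeq GRCm38.p6, where 56 of 58 named genes matched, 7 by an older symbol. A match means that the locus overlaps the gene of that name, and some loci reach well past it. The Drd1a locus spans 53838374 to 54055658 and the gene 54051183 to 54055658. The C030019I05Rik locus spans 46192017 to 46312859 and the gene 46235557 to 46239871. The Slc18a2 locus ends at 59349722 and the gene at 59296012. For Drd2 these ends are 49486355 and 49408177, for Srsf6 162977126 and 162937121, and for Armc10 21701414 and 21662699.

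Named genes were the 12 of smallest interaction p in each direction at a mean of 1 CPM or more with a single symbol, 17 panel genes, and up to 2 members of each list of smallest p under 0.05. Other genes were picked once their values had been seen. The genes, lists and tests were chosen with earlier results of these data known. Of 629 entries in 26 lists, 604 were tested, and 17 of the 25 others lay in shared loci. Results were recomputed with DESeq2 1.42.0 and with limma-voom (limma 3.58.1), which here gave each library a quality weight. Scaling by RLE or upper quartile was also run, and fits unfiltered or keeping genes of 1 CPM in at least 5 libraries. Further fits took the replicate number as a block, took the cortical marker level as a covariate, or left out each library in turn. Added after the data were seen were the cortical and thalamic levels as covariates and a fit of the libraries left after dropping the 4 with most thalamic marker RNA. Extra summaries used Python 3.11.15, pandas 2.3.3 and numpy 2.4.6, and figures matplotlib 3.10.9. Mice of a group are separate animals.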

Additional observations from a re-analysis of the deposited data

Results flagged for a closer look

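In groups of 5 libraries, 19 of 336 groups checked had a highest or lowest library set apart from its other 4 by a gap test at the 95% level, where chance alone gives about 1 in 20. Overactive saline 3 was set apart in 5 of them. It had an immediate early gene level of 0.627, with the other 4 at -0.21 to -0.18, and a delayed activity-regulated gene level of 0.225. It held 286 CPM of Arc, with the others at 80.4 to 111 CPM, 16.3 CPM of Hspa1a, with the others at 5.32 to 6.83 CPM, and 1.66 CPM of Atf3, with the others at 0.522 to 0.723 CPM.

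Control amphetamine 2 was set apart in 4. It held 39.7 CPM of Sertad4 (others 55.1 to 61 CPM), 13.3 CPM of Th (others 6.87 to 8.01 CPM), 92.7 CPM of Kcnj9 (others 67.3 to 73.3 CPM) and 28.3 CPM of Rpl29 (others 8.85 to 11.7 CPM). Control saline 2 held 47.1 CPM of Rpl29, with the others at 10 to 11.5 CPM, and had a glucocorticoid-responsive gene level of 0.0227, with the others at -0.178 to -0.123.

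The rest were single cases. Overactive amphetamine 1 held 145 CPM of Tmem47 (others 173 to 181 CPM). Overactive saline 2 held 10.1 CPM of Slc18a2 (others 12 to 12.8 CPM). Control amphetamine 3 held 14.5 CPM of Pecam1 (others 12.7 to 13.2 CPM). Control saline 1 held 18 CPM of Bdnf (others 7.63 to 9.75 CPM). List levels apart from their group were heat shock and chaperone genes in overactive amphetamine 3 at -0.292 (others 0.0139 to 0.0537), red blood cell markers in overactive amphetamine 5 at 3.23 (others -1.01 to 0.0566), and potassium channel genes at -0.147 and microglia markers at 0.231 in overactive saline 5.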

How the results depend on the processing

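The interaction had 0 genes passing under every alternative run, that is 2 other scalings, 2 other filters, DESeq2, limma-voom, the replicate block, both covariate fits, the fit without 4 libraries and each library left out. The control-line response also had 0 under all of these. In the overactive line 0 passed except with DESeq2 (40) and without the 4 libraries highest in thalamic markers (29). In the latter fit the overactive groups did not overlap in cortical marker level. Interaction genes at an unadjusted p under 0.05 numbered 510 of 17206 tested, with 511 under RLE and 518 under upper quartile scaling. There were 701 of 22320 genes tested without a filter and 432 of 15317 under the stricter filter. Of 17206 genes there were 516 with the cortical covariate, 558 with both covariates and 1221 without the 4 libraries. The last count lay above the 860 that 5% of 17206 genes makes, and the main count lay below it. Leaving out 1 library gave 390 (without overactive amphetamine 1) to 770 (without overactive saline 1). The Pearson r between the responses was 0.24, 0.11 with the cortical covariate, 0.13 with both, and 0.14 (without control amphetamine 2) to 0.29 with 1 library left out. The share of genes with the same sign was then 58.6% to 63.8%.

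For replicate numbers shared across groups, 30 same-numbered pairs had a median correlation of 0.035 (-0.232 to 0.247), against -0.008 for pairs of other numbers. Of the same-numbered pairs 10 were over 0.1, and 6 of 20 libraries correlated best with their own number. Such correlations cannot show whether the mice were paired. With the replicate number as a block, 0 genes passed the interaction and 551 had an unadjusted p under 0.05. Signs changed for Ttr (-1.19 with the replicate block, -1.23 with both covariates, -0.63 without the 4 libraries, and -2.13 to 2.56 with 1 library left out), Bdnf (-0.20 with the cortical covariate, -0.23 with both), Slc17a7 (-0.07 with the cortical covariate), Drd1a (0.05) and Tac1 (0.03) with both covariates, Arc (-0.79 to 0.01 with 1 library left out) and Hspa1a (-0.59 to 0.01 likewise). Among list medians, choroid plexus markers (0.49) had -0.50 with the replicate block, -0.68 with both covariates and -0.06 with limma-voom and sample weights. With the cortical covariate the median took the other sign for striatal interneuron genes (0.13), GABA receptor subunits (-0.02), potassium channel genes (-0.01), core clock genes (-0.01), cholesterol synthesis genes (-0.06) and oligodendrocyte precursor markers (0.01). The cause of these changes was not tested. The cortical covariate contains Slc17a7 and differs between the groups, so it cannot test one. Its mean was 0.191 in overactive amphetamine, -0.763 in overactive saline, 0.467 in control amphetamine and 0.104 in control saline libraries. Precision was lowest under 1 CPM, where 14.1% of intervals lay within 2-fold, and counting error was not separated there from variation between mice.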

Other observations

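Of the 40 genes that DESeq2 called in the overactive line alone, 3 were also named here for a smaller expression under amphetamine, namely Slc18a2, Tmem47 and C030019I05Rik, with DESeq2 log2 responses of -0.51, -0.71 and -0.61. Others with a positive response were Kcnj9 (0.56, SE 0.14), Slc30a3 (1.69, SE 0.42), Slc17a7 (1.61, SE 0.42), Cacng7 (0.23, SE 0.05), Gabra5, a GABA receptor subunit (0.26, SE 0.07), Id2, a transcriptional inhibitor (0.50, SE 0.11), and Bcl2l11, a mediator of apoptosis (0.47, SE 0.10), the last 3 chosen after their values were seen. The same program called 0 genes in the control line and 0 for the interaction, so a call in 1 line is not a difference between the lines.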
